A study of Homo sapiens with 6 samples.

Results

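The COMMD family is a set of 10 small paralogous human proteins, COMMD1 to COMMD10, that share a conserved carboxy-terminal copper metabolism gene MURR1 (COMM) domain. Their genes made up 10 of the 46427 genes in the expression table and were taken by symbol. COMMD2 was selected on its fall after MALAT1 knockdown in these libraries, so its response is given as a description with no test, and the 9 paralogues were taken by name alone for comparison. In cells the COMMD proteins assemble into a ring that is held by the coiled-coil proteins CCDC22 and CCDC93 (the CCC complex). Together with the retriever trimer and DENND10 this ring forms the Commander assembly, which sits on endosomes beside the actin-regulating WASH complex and returns receptors and transporters to the cell surface instead of letting them reach the lysosome. COMMD1, the founding member, is also known for its part in copper handling and as a brake on NF-kB signalling.

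Total RNA was sequenced from 3 NSCLC cell lines, H460, H1299, and A549, with 1 control and 1 si-MALAT1 library per line and 6 libraries in all. H460 derives from a large cell carcinoma, H1299 from a lymph node metastasis of NSCLC, and A549 from a lung adenocarcinoma. The si-MALAT1 libraries came from cells transiently transfected with small interfering RNA against the nuclear lncRNA MALAT1. The labels call the controls untreated, whereas the methods describe untreated and si-Control cells without stating which were sequenced, so that transfection itself and the loss of MALAT1 cannot be told apart. Each line is a single cell line with 1 library per condition, and a difference within a line therefore has no replicate check. In bulk RNA a change in the share of cells that express a gene and a change in the amount per cell cannot be told apart.

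Total counts ranged from 42506818 to 68515992 per library. MALAT1 (Gene ID 378938) was lower by a log2 fold change of -2.32 in H460, by -2.96 in H1299, and by -2.84 in A549. The epithelial keratins KRT8 and KRT18 were present in the 6 libraries, at 123 TPM or more, but in A549 they were lower after si-MALAT1 (1778 and 793 TPM for KRT8, 2918 and 1235 TPM for KRT18), and their part in the A549 values was not tested. These other markers were uneven between the lines. KRT19 was at 2.23 TPM or less in H1299 and A549. EPCAM was at 0.776 TPM or less and CDH1 at 0.0468 TPM or less in H460 and H1299. The mesenchymal gene VIM ranged from 446 to 2120 TPM. CDH2, also mesenchymal, had 0.817 and 0.895 TPM in H460 and 15.7 to 30.9 TPM in H1299 and A549. The leukocyte gene PTPRC was listed at 0 in each library. The vessel gene PECAM1 was at 0.0221 TPM or less and the fibroblast gene COL1A2 at 0.019 TPM or less. The fibroblast gene COL1A1 had 0.505 and 1.32 TPM in H460, 0.109 and 0.482 TPM in H1299, and 1.29 and 2.03 TPM in A549. It was thus higher after si-MALAT1 in each line, which was not tested. CDKN2A, which is deleted in H460 and A549, was listed at 0 in those lines and reached 47.2 TPM in the H1299 control. 

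Short sequence words were examined in the 3' UTRs, since an earlier search over these same data had put the 7-base words TGAATCA and ATGAATC first among those associated with falls. The sites in the family are shown because they lie in COMMD2 and in only 1 of its paralogues. The search used the sense strand of the RefSeq transcript with the longest coding region, on GRCh38, and both words overlap each other in 6 bases. Sites are written 5′ to 3′ as DNA with the word in capitals.
COMMD2 at chr3:149741477-149741505, minus strand: tttaattcattTGAATCActtatgaattg
COMMD2 at chr3:149740868-149740896, minus strand: ataaataggatTGAATCAactagaaatga
COMMD2 at chr3:149740854-149740882, minus strand: atcaactagaaATGAATCtatatgttctg
COMMD6 at chr13:75526304-75526332, minus strand: agactaacagtTGAATCAttgctgttgga

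The COMMD2 words began at bases 27, 636, and 650 of a 3' UTR of 3049 bases. The COMMD6 word began at base 268 of 1375 bases. The other 8 members held neither word in 3' UTRs that ran from 129 bases in COMMD1 to 2340 bases in COMMD9. Either word was present in 17.4% of 12724 genes with a 3' UTR and a read in each library, whose median 3' UTR was 1303 bases long. Among the 1647 genes with a 3' UTR within 20% of the length of that of COMMD2, the share was 27.3%. The median of the mean log2 fold changes was -0.09 for genes with either word and 0.03 for the rest. Because the words were found in these libraries, those medians are not independent of the fold changes, and a matching word is a description of the sequence and not a shown binding site.

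COMMD2 (Gene ID 51122, chr3:149738470-149752499, minus strand, GRCh38) is a ring subunit with few functions assigned to it alone. Its count was 2151 in the H460 control and 866 in the H460 si-MALAT1 library. In H1299 the counts were 4823 and 1587, and in A549 they were 2138 and 689. After scaling for depth by relative log expression (RLE) size factors, COMMD2 stood at 42.6% of control for H460, 36.0% for H1299, and 29.2% for A549. All 3 si-MALAT1 libraries lay below all 3 controls, although the H1299 control held more COMMD2 than the other controls.

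The log2 fold change of COMMD2, taken as log2(RLE-scaled count + 1) of si-MALAT1 minus control, was -1.23 in H460 with a 95% interval of -1.35 to -1.12. It was -1.47 in H1299 with an interval of -1.56 to -1.39. It was -1.78 in A549 with an interval of -1.90 to -1.65. These are exact Clopper-Pearson intervals on the split of the reads between both libraries, and they cover counting error only. The mean was -1.49 ± 0.27 (SD, n = 3 lines). Ordered by the smallest fall over the lines, COMMD2 was at rank 7 of 12306 protein-coding genes with a mean count of at least 50. GOLM2, with a smallest fall of -1.25, was just before it and TALDO1, with -1.21, just after it. A fall of at least 1.5-fold in each of the 3 lines was seen for 1.28% of all genes, and COMMD2 was the member in that group. The control and si-MALAT1 libraries did not overlap for 4.78% of all genes and, in the family, for COMMD2. Since COMMD2 was chosen for this pattern, both counts describe the choice.

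**Figure D1:**
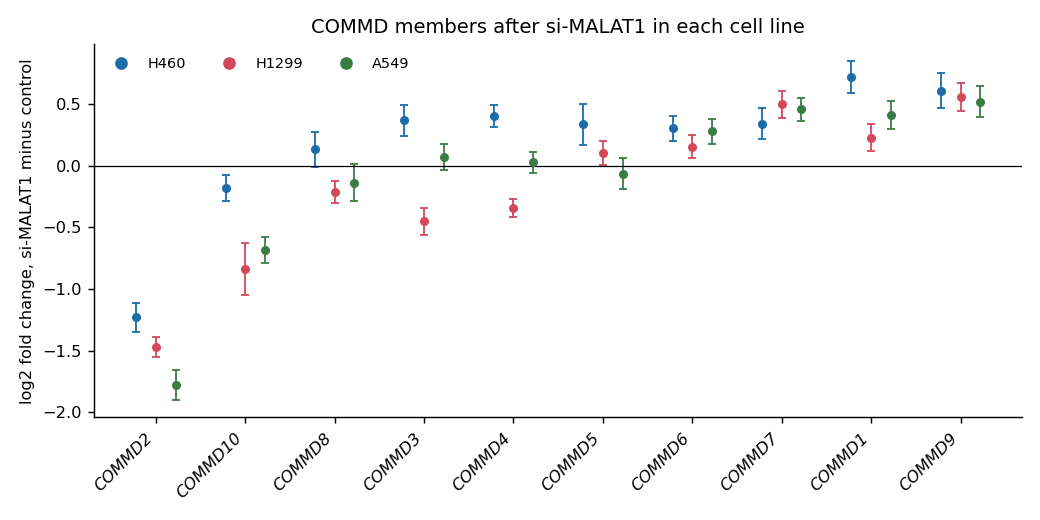
Log2 fold change of each COMMD member after si-MALAT1 (y axis, si-MALAT1 minus control on the RLE-scaled scale with 1 added), with a point per cell line and vertical lines for the 95% counting interval. COMMD2 lies between -1.78 and -1.23, and the members on the right, COMMD1, COMMD7, and COMMD9, lie above 0 in the 3 lines.

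None of the 9 paralogues passed the paired test of si-MALAT1 against control. By edgeR's quasi-likelihood test with cell line as the block and Benjamini-Hochberg adjustment, 0 of 9 paralogues were called, against 0.00523% of the 19122 genes tested, which was MALAT1 alone. At an unadjusted p under 0.05 edgeR gave 4 paralogues, COMMD1, COMMD7, COMMD9, and COMMD10, beside 2863 of all genes (15%). DESeq2 called 2 paralogues, COMMD7 and COMMD9, both higher after si-MALAT1, against 6.07% of the 19122 genes fitted. Some of these genes were given no adjusted p by DESeq2, so the share among genes with one is higher. All 10 members passed the filter on low counts. The edgeR fit had 2 residual degrees of freedom. The median log2 fold change of the 9 paralogues was 0.34 for H460, 0.10 for H1299, and 0.07 for A549, beside 0.02, 0.02, and 0.01 over all genes with a read in each library.

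COMMD9 had the smallest SD over the lines among the paralogues. COMMD9 (Gene ID 29099, chr11:36272292-36289428, minus strand) is a ring subunit known for its part in the return of Notch receptors from endosomes. Its count was 657 in the H460 control and 947 in the H460 si-MALAT1 library, against 1120 and 1507 for H1299 and 852 and 1349 for A549. The si-MALAT1 library of each line was above its own control, while the H460 si-MALAT1 library was below the A549 control, so the groups overlapped. The log2 fold change was 0.61 for H460, 0.56 for H1299, and 0.52 for A549, and the mean of COMMD9 was 0.56 ± 0.05 (SD, n = 3). Its adjusted p was 0.123 by edgeR and 0.00392 by DESeq2.

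COMMD7 and COMMD1 were also above control in the 3 lines. COMMD7 (Gene ID 149951, chr20:32702691-32743472, minus strand), a ring subunit able to bind NF-kB proteins, had counts of 975 and 1167 for H460, 1226 and 1581 for H1299, and 1534 and 2329 for A549. Its log2 fold changes were 0.34, 0.50, and 0.46 in H460, H1299, and A549. The mean of COMMD7 was 0.43 ± 0.08 (SD, n = 3), and edgeR gave an adjusted p of 0.176 and DESeq2 one of 0.0268. COMMD7 thus depended on the tool for its call. COMMD1 (Gene ID 150684, chr2:61888391-62141186, plus strand) had counts of 792 and 1232 for H460, 1295 and 1385 for H1299, and 1058 and 1555 for A549. Its log2 fold change was 0.72 for H460, 0.23 for H1299, and 0.41 for A549, so the lines differed more than for COMMD9. The mean of COMMD1 was 0.45 ± 0.25 (SD, n = 3), and the adjusted p was 0.231 by edgeR and 0.0905 by DESeq2. COMMD1 shares 194 exon bases, 2.38% of its own, with CCT4 on the opposite strand, and CCT4 had log2 fold changes of -0.01, -0.17, and -0.18.

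COMMD6 (Gene ID 170622, chr13:75525214-75549439, minus strand), the member that lacks most of the amino-terminal region of its paralogues, had small positive values. Its counts were 1467 and 1710 for H460, 1889 and 1918 for H1299, and 1413 and 1895 for A549. The log2 fold changes of COMMD6 were 0.30, 0.15, and 0.28, with a mean of 0.24 ± 0.08 (SD, n = 3) and an adjusted p of 0.392 by edgeR. COMMD6 carried the searched word TGAATCA and had no value below control. Whether the word had any part in these values was not tested.

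COMMD10 was the other member below control in the 3 lines. COMMD10 (Gene ID 51397, chr5:116085025-116293290, plus strand) is a further ring subunit. Its counts were 1614 and 1343 for H460, 558 and 285 for H1299, and 1757 and 1209 for A549. The log2 fold change was -0.18 in H460 with an interval of -0.29 to -0.08, -0.84 in H1299 with an interval of -1.05 to -0.63, and -0.68 in A549 with an interval of -0.79 to -0.58. The mean of COMMD10 was -0.57 ± 0.34 (SD, n = 3), and the adjusted p was 0.186 by edgeR and 0.0511 by DESeq2. It ranked 588 among the 12306 protein-coding genes by mean change, where COMMD2 ranked 17. The groups overlapped widely for COMMD10. Its H1299 control, with an RLE-scaled count of 442, lay below the si-MALAT1 libraries of H460 (1314) and A549 (1440).

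COMMD3 and COMMD4 had values of opposite sign in different lines. COMMD3 (Gene ID 23412, chr10:22316388-22320306, plus strand), which with COMMD8 supports signalling of chemoattractant receptors in B cells, had counts of 937 and 1143 for H460, 1777 and 1187 for H1299, and 1349 and 1567 for A549. Its log2 fold changes were 0.37, -0.45, and 0.07, and the adjusted p was 0.968 by edgeR. COMMD4 (Gene ID 54939, chr15:75336035-75343227, plus strand) had counts of 1846 and 2302 for H460, 3549 and 2550 for H1299, and 2131 and 2403 for A549. Its log2 fold changes were 0.40, -0.35, and 0.03, and the adjusted p was 0.986 by edgeR. The mean over the lines was near 0 for both genes, -0.00 ± 0.41 for COMMD3 and 0.03 ± 0.37 for COMMD4 (SD, n = 3). The sign of that mean depended on the scaling for COMMD3 (CPM) and for COMMD4 (TMM), and for both on which line was left out.

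COMMD3 shares 440 exon bases, 47.5% of its own, with the readthrough gene COMMD3-BMI1 (Gene ID 100532731) on the same strand, so reads could be split between them. COMMD3-BMI1 had counts of 204 and 402 for H460, 22 and 302 for H1299, and 301 and 624 for A549. Its log2 fold changes were 1.06, 3.83, and 0.91, with an adjusted p of 0.254 by edgeR and 0.0172 by DESeq2. Of the summed counts of both genes, the readthrough held 17.9% and 26% for H460, 1.22% and 20.3% for H1299, and 18.2% and 28.5% for A549. With the counts summed, which was chosen after seeing the data, the log2 fold changes were 0.52, -0.14, and 0.26, with a mean of 0.21 ± 0.33 (SD, n = 3). The value of COMMD3 after si-MALAT1 was thus uncertain to the extent of these shared bases.

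COMMD5 and COMMD8 had no common sign over the lines on the RLE-scaled counts. COMMD5 (Gene ID 28991, on chromosome 8, minus strand), first described as a calcium-regulated gene linked to hypertension, had counts of 547 and 652 for H460, 1877 and 1841 for H1299, and 973 and 1029 for A549. Its log2 fold changes were 0.33, 0.10, and -0.06, with an adjusted p of 0.760 by edgeR. COMMD5 shares 389 exon bases, 14.1% of its own, with ZNF7 on the opposite strand, whose log2 fold changes were 0.02, 0.02, and -0.13. COMMD8 (Gene ID 54951, chr4:47450787-47463730, minus strand) had counts of 821 and 850 for H460, 2360 and 1861 for H1299, and 705 and 709 for A549. Its log2 fold changes were 0.13, -0.21, and -0.14, with an adjusted p of 0.788 by edgeR. By TPM, however, COMMD8 was below control in each of the 3 lines, with 9.55 and 9.32 for H460, 27.8 and 25.1 for H1299, and 13.8 and 10.7 for A549, and its mean was -0.17 on the log2(TPM + 1) scale instead of -0.07.

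Counted over the family, 4 members were above control in the 3 lines (COMMD1, COMMD6, COMMD7, and COMMD9) and 2 were below (COMMD2 and COMMD10). That is 6 of 10 members with the same sign throughout, against 40.2% of all genes, while 21.4% of all genes were higher in the 3 lines. At least 1.5-fold in either direction was reached in H460 by COMMD1 and COMMD9 (higher) and COMMD2 (lower), that is by 3 members against 19.8% of all genes. In H1299 it was reached by 2 members, COMMD2 and COMMD10, both lower, against 23.1% of all genes. In A549 it was again COMMD2 and COMMD10, both lower, against 22.9%. COMMD2 is in each of these counts by the way it was chosen, and without it 2 of 9 paralogues remained for H460, 1 of 9 for H1299, and 1 of 9 for A549.

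**Figure D2:**
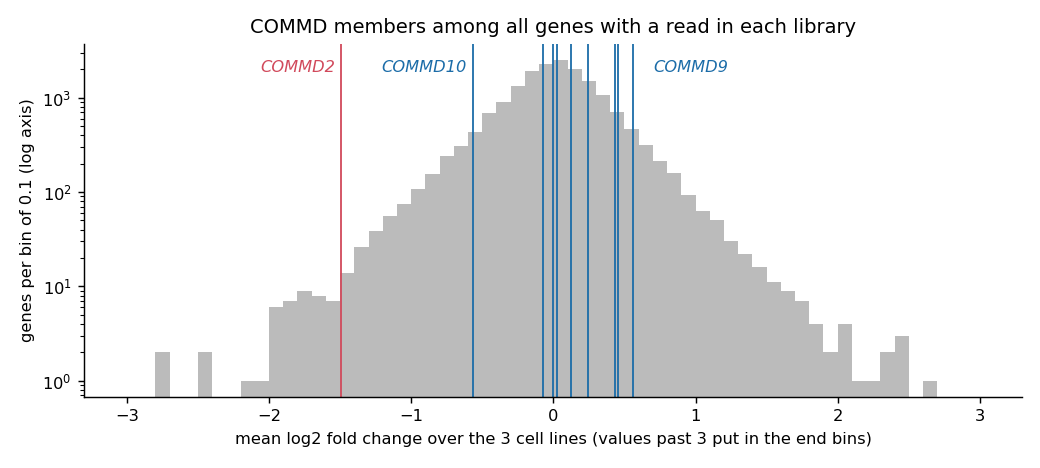
Histogram of the mean log2 fold change over the 3 cell lines for the 17834 genes with a read in each library (x axis, si-MALAT1 minus control; y axis, genes per bin on a log axis), with the COMMD members marked. COMMD2 lies at -1.49 and COMMD10 at -0.57, and the other members lie between -0.07 and 0.56.

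Levels were compared between the members per transcript length, with the deposited TPM. COMMD4 had the highest TPM of the family in 6 of 6 libraries, with a mean of 53.2 ± 13.2 (SD, n = 6). COMMD3 followed at 30.3 ± 10.9, and was at rank 2 in 4 libraries and at rank 3 in both others. COMMD7, COMMD1, and COMMD6 lay close together at 21.98 ± 12.0, 21.9 ± 11.2, and 20.9 ± 5.06 TPM, well within their spread. COMMD5, COMMD8, and COMMD10, at 17.0 ± 8.16, 16.0 ± 8.25, and 15.9 ± 10.8 TPM, also did not differ beyond theirs. COMMD2 had 11.03 ± 7.22 TPM and COMMD9 had 7.76 ± 3.07 TPM. The SDs include the differences between lines and treatments, and the order of these means was not that of each line. COMMD10 was at rank 2 in the H460 control and at rank 10 in both H1299 libraries, and COMMD5 was at rank 9 in the H460 control and at rank 2 in the H1299 si-MALAT1 library. The first place of COMMD4 depended on how length was counted, since per kilobase of all annotated exons COMMD4 was first in 0 of 6 libraries and COMMD3 had the most reads in each.

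The place of COMMD2 in the family changed with its fall. COMMD2 had 9.98 TPM in the H460 control and 3.85 TPM after si-MALAT1, 22.6 and 8.50 TPM in H1299, and 16.5 and 4.78 TPM in A549. Its share of the summed TPM of the family was 7.12% for control and 2.54% for si-MALAT1 cells of H460, with 9.80% and 4.09% for H1299 and 5.89% and 1.67% for A549. In H460 and A549 COMMD9 was the lowest member in the control library and COMMD2 the lowest after si-MALAT1, whereas in H1299 COMMD10 was the lowest in both. The summed TPM of the family was 140 and 152 for H460, 230 and 208 for H1299, and 280 and 287 for A549, so the total did not move in one direction.

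**Figure D3:**
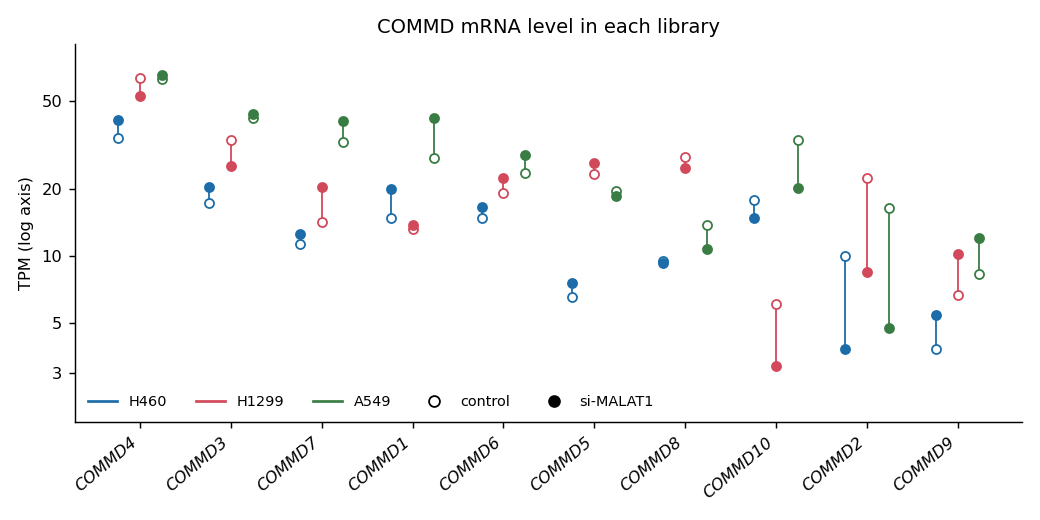
TPM of each COMMD member in the 6 libraries on a log axis, with open circles for control, filled circles for si-MALAT1, colours for the cell lines, and a line joining the libraries of a cell line. COMMD4 is at the top with 34.0 to 65.6 TPM, and the filled COMMD2 circles lie below the open ones in each line.

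Levels were also compared among the cell lines. The levels did not enter the choice of COMMD2, but the spread used in this test did. By edgeR's F test of the cell line terms, with treatment as a further term, 9 of 10 members differed among the lines, against 62.9% of the 21771 genes tested. COMMD4 was the exception, with an adjusted p of 0.128. This count fell to 5 without the treatment term and to 4 when the A549 libraries were left out. Over all genes the count was 13687, with 13031 without the treatment term and 10399 without A549. In this test the control and si-MALAT1 library of a line serve as its replicates. The spread is therefore how unevenly the change after si-MALAT1 ran over the lines. COMMD2, which is among the 9, was chosen for a consistent fall, so its call is not an independent test. By mean TPM, 7 members were highest in A549 and 3, COMMD2, COMMD5, and COMMD8, in H1299. The lowest mean TPM was in H460 for 8 members and in H1299 for COMMD1 and COMMD10. For COMMD1 the counts gave the other order, with an H1299 minus H460 difference of 0.22 that did not pass (edgeR adjusted p = 0.306).

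COMMD10 had the widest difference between lines in the family. Its TPM was 17.9 and 14.9 for H460, 6.08 and 3.20 for H1299, and 33.3 and 20.3 for A549, control before si-MALAT1. Both H1299 libraries were thus below all others. COMMD10 was higher in A549 than in H1299 by 2.46 on the log2 scale (edgeR adjusted p = 0.000354). The difference of H1299 minus H460 was -2.10 (edgeR adjusted p = 0.000505). A549 and H460 differed by 0.37 for COMMD10, which did not pass (edgeR adjusted p = 0.187).

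COMMD7 was higher in A549, with 32.5 and 40.7 TPM in A549, 11.4 and 12.6 TPM in H460, and 14.3 and 20.4 TPM in H1299. The A549 libraries lay above all others, and the log2 difference was 1.22 against H460 (edgeR adjusted p = 0.00143) and 1.04 against H1299 (edgeR adjusted p = 0.00174). COMMD8 was instead highest in H1299, with 27.8 and 25.1 TPM against 9.55 and 9.32 TPM in H460 and 13.8 and 10.7 TPM in A549. The H1299 minus H460 difference of COMMD8 was 1.11 (edgeR adjusted p = 0.00197), and A549 minus H1299 was -0.97 (edgeR adjusted p = 0.00383). COMMD5 was low in H460, at 6.58 and 7.60 TPM, against 23.4 and 26.2 TPM in H1299 and 19.7 and 18.7 TPM in A549. Its log2 difference from H460 was 1.42 in H1299 (edgeR adjusted p = 0.000922) and 1.13 in A549 (edgeR adjusted p = 0.00345).

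COMMD2 itself was higher in H1299 than in H460 by 0.80, and its A549 minus H1299 difference was -0.57. No p-value is given for COMMD2 here, since the spread of this fit was part of its choice. Its TPM in the controls followed H1299, A549, and H460 in falling order, and so did that of the si-MALAT1 libraries, but on the RLE-scaled counts the last of these were close and in the other order, with 847 for H460 and 820 for A549. The A549 minus H460 difference of COMMD2 was 0.23. Over the pairs of lines, 6 members differed between A549 and H460, all higher in A549, against 35.3% of all genes. Between A549 and H1299 there were 5, of which 3 were higher in A549, against 47.2%. Between H1299 and H460 there were 5, of which 4 were higher in H1299, against 50.7%. COMMD2 is counted among the 5 in both of these last pairs.

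**Figure D4:**
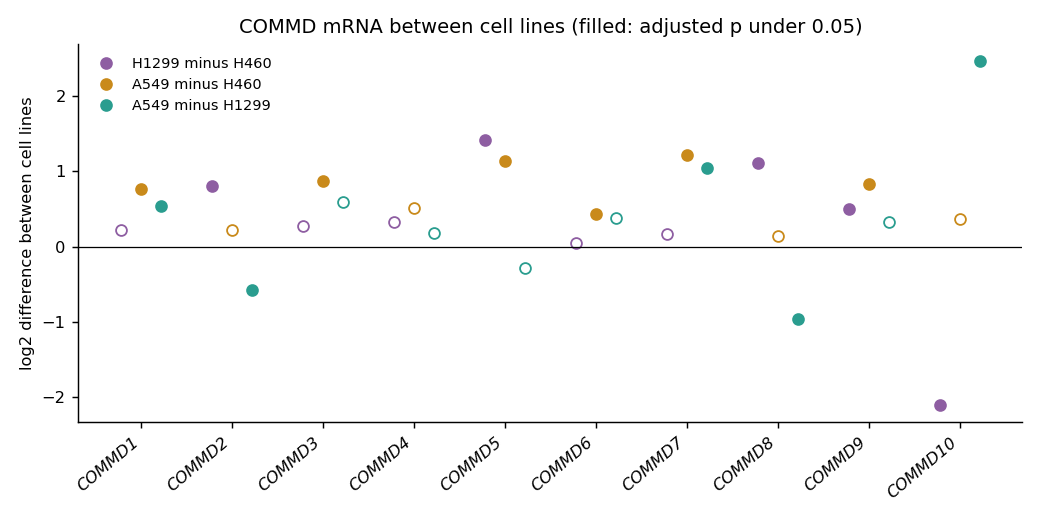
Log2 difference in the level of each COMMD member between the cell lines (y axis), for A549 minus H1299, A549 minus H460, and H1299 minus H460, with filled points for an edgeR adjusted p under 0.05. COMMD10 spans from -2.10 to 2.46, and the points of COMMD4 are open. COMMD2 was chosen for a consistent fall, so its filled points are not an independent test.

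The proteins that hold the ring and work beside it were then examined. A list of 50 partner genes was taken from general knowledge, of which 49 could be tested, and SNX31 had 0 reads in the 6 libraries. edgeR called 0 of the 49, with 9 at an unadjusted p under 0.05, and DESeq2 called 3 higher and 1 lower. Over the genes fitted 15% had an unadjusted p under 0.05 by edgeR. DESeq2 called 6.07% of them, with genes given no adjusted p counted in. The partners thus stood near the background. The median of the mean log2 fold changes was 0.10, beside 0.01 over all genes. Of the ring holders, CCDC22 had log2 fold changes of -0.12, -0.11, and -0.65 in H460, H1299, and A549 (edgeR adjusted p = 0.428). CCDC93 had -0.26, 0.35, and 0.11 (edgeR adjusted p = 0.908). The ring holders therefore did not share a direction over the lines.

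Of the cargo-binding retriever trimer, VPS35L had -0.14, 0.24, and 0.08 (edgeR adjusted p = 0.909). VPS26C had 0.09, 0.38, and -0.20 (edgeR adjusted p = 0.850). VPS29, which retriever shares with retromer, had -0.06, -0.33, and -0.29 (edgeR adjusted p = 0.382). DENND10, the remaining Commander subunit, had 0.18, 0.29, and -0.06 (edgeR adjusted p = 0.699). Among the non-COMMD subunits of Commander, the lowest mean was that of CCDC22 at -0.29 ± 0.31 (SD, n = 3). The means of COMMD2 and COMMD10 were lower. COMMD2 was chosen for its fall, and COMMD10 had the lowest mean of the paralogues, so that order describes the choice of both.

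The WASH complex, which builds branched actin on the endosome, had 0 of 9 genes called by edgeR, with 3 at an unadjusted p under 0.05. DESeq2 called 2 higher, the WASH subunit WASHC3 with log2 fold changes of 0.41, 0.46, and 0.34 (DESeq2 adjusted p = 0.0497) and the actin-capping subunit CAPZA1 with 0.27, 0.40, and 0.34 (DESeq2 adjusted p = 0.0237). The median of the WASH list was 0.22, and 7 of 9 genes were above control in the 3 lines, against 21.4% of all genes. That share was not tested, and genes measured in the same 6 libraries are not independent of each other. Among 10 cargo proteins of this route, edgeR called 0, with 4 at an unadjusted p under 0.05, and DESeq2 called 1 lower, the integrin subunit ITGAV, with log2 fold changes of -0.93, -0.57, and -1.41 (adjusted p = 0.103 by edgeR and 1.8e-05 by DESeq2). The other 3 of these 4, named after their values were seen, were above control in each line and did not pass by either tool. The lipoprotein receptor gene LRP1 had 0.10, 1.12, and 0.62 (DESeq2 adjusted p = 0.0510), the integrin gene ITGA5 had 0.19, 1.23, and 0.30 (DESeq2 adjusted p = 0.106), and the copper transporter gene ATP7A had 0.13, 0.61, and 0.28 (DESeq2 adjusted p = 0.184). The median of the cargo list was 0.02.

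Among 13 NF-kB and cullin partners of COMMD1, edgeR called 0 and DESeq2 called 1 higher, the cullin exchange factor CAND1, with log2 fold changes of 0.32, 0.28, and 0.45 (DESeq2 adjusted p = 0.0214), which was also the 1 gene at an unadjusted p under 0.05. The median of that list was 0.15. Among 8 copper-handling genes 0 were called by edgeR and 0 by DESeq2, with 2 at an unadjusted p under 0.05 by edgeR and a median of 0.09. These 2 were ATP7A, given above, and COX17, which was below control in each line. COX17 had log2 fold changes of -0.13, -0.47, and -0.30 (DESeq2 adjusted p = 0.300) and was named after its values were seen. Retromer, with 3 genes and a median of 0.06, and the sorting nexins SNX17 and SNX27, with a median of 0.18, had 0 calls by either tool and 0 at an unadjusted p under 0.05 by edgeR.

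**Figure D5:**
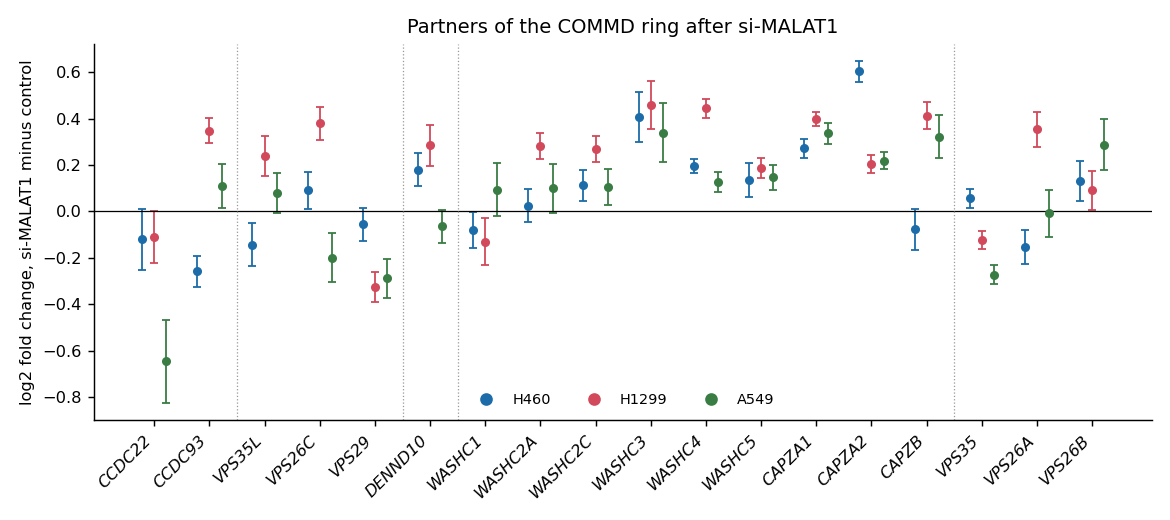
Log2 fold change after si-MALAT1 of the non-COMMD partners of the ring (y axis, si-MALAT1 minus control), with a point per cell line and vertical lines for the 95% counting interval. WASHC3 lies between 0.34 and 0.46, whereas CCDC93 lies on both sides of 0, between -0.26 and 0.35.

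The genes whose change after si-MALAT1 was nearest to that of COMMD2 were found among 10077 protein-coding genes with a mean count of at least 500. The measure was the Euclidean distance between log2 CPM values over the 6 libraries, centred within each line. RRAS2, a small GTPase related to RAS, was nearest at a distance of 0.0779. It was followed by the transporter gene SLC35E1 at 0.190, the pentose phosphate enzyme gene TALDO1 at 0.193, the glycolytic enzyme gene PGAM1 at 0.194, and the RNA polymerase subunit gene POLR2H at 0.211. Their mean log2 fold changes were -1.44, -1.38, -1.58, -1.34, and -1.46 in that order, beside -1.49 for COMMD2. No COMMD paralogue was among these 5 genes. Centring within a line leaves only the change after si-MALAT1, on which COMMD2 was chosen. The similar means therefore follow from the measure, and the absence of a paralogue restates the fold changes given above.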

How the data were processed

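The 6 libraries (H460, H1299, and A549, control and si-MALAT1) were grouped by the labels. The authors trimmed the reads and aligned them to hg38, and StringTie estimated abundances on an NCBI gene annotation. The processing notes name HISAT2 2.1.0 and StringTie 1.3.4b, while the methods give another StringTie version. They deposited read counts, FPKM, and TPM for 46427 genes. The library kit was stranded, and whether counting used strand is not given in the sources used here. Another 18 columns belong to other samples and were not used.

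Counts were tested with edgeR 4.0.16 (quasi-likelihood, TMM, filterByExpr, Benjamini-Hochberg adjusted p under 0.05 over all genes), with cell line as block for si-MALAT1 and with treatment as a term for cell lines, and DESeq2 1.42.0 as the alternative. Both edgeR fits, but not DESeq2, were run on simulated counts in which all genes had the same dispersion. That run does not measure how many changes could be found in these libraries. The libraries were paired by cell line, and their deviations from the group means correlated at 0.930, 0.943, and 0.934 over 14464 genes. Fold changes within a line used RLE-scaled counts + 1. Exons and 3' UTRs came from the deposited GRCh38 annotation, and sequence from hg38. The genes named are MALAT1, the markers, the 10 members, genes whose exons overlap theirs, listed partners that passed a test, the Commander subunits, and the sorting nexins. GOLM2 and TALDO1 are named as neighbours in rank, with the 5 genes nearest to COMMD2. LRP1, ITGA5, ATP7A, and COX17, which did not pass, were named after their values were seen. Members were taken by family name, partner lists from general knowledge, and words from the earlier search. All were chosen with earlier results of these data known. Nothing states that the libraries are separate experiments, so p-values measure the spread between these libraries only. Alternatives were other scalings, no filter, no block, DESeq2, TPM or FPKM, other pseudocounts, and leaving out each line. Protein sequences were not used here, and 1 further marker gene is not reported here. R 4.3.3 and Python 3.11.15 were used.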

Additional observations from a re-analysis of the deposited data

Results flagged for a closer look

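COMMD3 and COMMD4 had opposite directions in H460 and H1299. COMMD3 had a log2 fold change of 0.37 in H460 and -0.45 in H1299, and COMMD4 had 0.40 in H460 and -0.35 in H1299. The counting intervals were clear of 0 in each case, but they do not cover how reads were split between overlapping genes. With the readthrough counts added, COMMD3 had 0.52 in H460 and -0.14 in H1299. The difference between the lines was not tested, since each line has 1 library per condition. Beside COMMD3, the overlapping readthrough COMMD3-BMI1 had the log2 fold changes 1.06 and 3.83 in those lines, and its part in the COMMD3 values was not tested beyond the summed counts given above.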

How the results depend on the processing

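The count of genes changed by si-MALAT1, which was 1 by edgeR with cell line as the replicate block, was 0 without the filter on low counts, 0 without the block, and 1161 by DESeq2. Leaving out a line gave 0 to 163 genes, with 163 without H460 and 0 without H1299 or A549. The count of paralogues changed was 0 under each of these edgeR alternatives and 2 by DESeq2, and the block changed no call among the paralogues. The number of members that differed among the lines, 9, became 5 without the treatment term and 7 without the filter, and ranged from 4 (without A549) to 7 when a line was left out. Over all genes, 13687 differed among the lines, with 13031 without the treatment term and 12393 without the filter. Leaving out a line gave 11159 genes without H460, 8663 without H1299, and 10399 without A549. COMMD4 led the family by TPM and by FPKM in 6 libraries and by read count per exon length in 0. Members with one sign in the 3 lines numbered 6 by RLE, CPM, TMM, and a pseudocount of 10, 7 by log2(TPM + 1), and 7 to 8 over the lines kept when 1 was left out. The additional member by TPM was COMMD8. Of 41 alternative values for single members that left out no line, 39 stayed within 1 SD of the value given. Both exceptions, COMMD7 at 0.31 and COMMD9 at 0.48, came from log2(TPM + 1). The causes were not tested. With 1 library per line and condition, the spread within a line is unknown, and counting intervals do not cover it.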
